A study of Rattus norvegicus with 15 samples.

Results

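The Cyp2c family is a group of cytochrome P450 genes whose haem enzymes oxidise drugs, steroids, retinoids and fatty acids in the endoplasmic reticulum of hepatocytes. The members were taken by gene name from a fixed list of 8 rat genes: Cyp2c6v1, Cyp2c7, Cyp2c11, Cyp2c12, Cyp2c13, Cyp2c22, Cyp2c23 and Cyp2c24. The rule found 10 of the 41012 non-control probes of the array, and they measure 7 of the 8 genes. Cyp2c24 had no probe under its own name. Liver RNA was measured with 1 one-colour Agilent array per rat. Female Wistar Crl:WI rats aged 2 to 3 months were dosed by feeding needle for 14 days with a suspension of fipronil, a phenylpyrazole insecticide, at 3 mg/kg each day (n = 8) or with its vehicle alone (n = 7). The vehicle, a methylcellulose (0.5%) and Tween 80 (0.01%) solution in water, was carried by both groups. Each sample was a fragment of about 100 mg from the large lobe of 1 liver, so a lower number of cells of a type cannot be told apart from less RNA per cell.

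In rat liver, expression of several Cyp2c genes follows the sex of the animal, because males secrete growth hormone in pulses and females secrete it more evenly. Cyp2c11 and Cyp2c13, steroid hydroxylases, are known as male-specific genes, Cyp2c12, which hydroxylates steroid sulfates, is the classical female-specific gene, and Cyp2c7, which acts on retinoic acid, is higher in females. Cyp2c6 enzymes are made in both sexes and are inducible by phenobarbital through CAR, a nuclear receptor that, with PXR, switches on genes of drug metabolism.

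Promoter windows from RefSeq (assembly GRCr8, 250 bases before to 50 bases after the annotated gene start) were matched to 7 of the 8 members; the member without one was Cyp2c6v1. The windows of 3 genes are shown: Cyp2c22, the member whose probe passed the test below, and Cyp2c12 and Cyp2c13, the most alike pair, of which one gene is known as female-specific and the other as male-specific. Capitals mark matches, on either strand, to TATAAAA (the TATA box), AGGTCA (a single nuclear receptor repeat), CAAAGNNCA (a site of the HNF4 type) and ATTGAT (a site of the HNF6 type).
Cyp2c22 (chr1:248980718-248981017, minus strand): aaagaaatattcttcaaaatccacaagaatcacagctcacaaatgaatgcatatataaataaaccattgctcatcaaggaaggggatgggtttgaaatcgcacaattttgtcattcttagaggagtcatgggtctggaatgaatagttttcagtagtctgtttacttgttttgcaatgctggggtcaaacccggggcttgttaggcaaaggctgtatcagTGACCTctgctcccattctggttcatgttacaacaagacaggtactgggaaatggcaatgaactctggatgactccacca
Cyp2c12 (chr1:248676985-248677284, minus strand): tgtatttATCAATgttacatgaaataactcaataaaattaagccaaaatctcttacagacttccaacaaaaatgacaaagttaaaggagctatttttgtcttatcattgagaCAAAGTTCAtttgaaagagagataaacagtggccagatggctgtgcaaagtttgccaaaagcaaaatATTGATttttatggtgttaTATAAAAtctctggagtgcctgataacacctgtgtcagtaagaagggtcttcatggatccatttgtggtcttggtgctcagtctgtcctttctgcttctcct
Cyp2c13 (chr1:248787139-248787438, minus strand): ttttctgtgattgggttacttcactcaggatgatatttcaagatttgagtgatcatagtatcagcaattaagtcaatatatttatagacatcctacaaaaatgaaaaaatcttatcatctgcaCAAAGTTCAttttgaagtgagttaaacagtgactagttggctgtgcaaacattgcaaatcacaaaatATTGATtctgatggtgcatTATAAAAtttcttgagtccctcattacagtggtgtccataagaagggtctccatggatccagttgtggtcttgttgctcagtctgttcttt

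Aligned end to end, the Cyp2c12 and Cyp2c13 windows were identical at 216 of 270 aligned bases (80.0%). Both held the same match to CAAAGNNCA, with the letters CAAAGTTCA, at -138 to -130 in Cyp2c12 and -127 to -119 in Cyp2c13, counted from the annotated start. Both also held ATTGAT on the forward strand and TATAAAA. Cyp2c11 and Cyp2c24 were the next most alike, at 79.2%. The Cyp2c22 window held 1 match, AGGTCA on the reverse strand at -30 to -25, and it lacked TATAAAA. Across the family TATAAAA was present in 5 of 7 windows, against 5.96% of 33469 promoter windows of the same length. AGGTCA was present in 3 of 7 (16.2% of all windows), CAAAGNNCA in 3 of 7 (6.08%), and ATTGAT in 3 of 7 (8.06%). No printed match overlapped a match of another motif. A match describes letters in a window and shows no binding. Related promoters are also not independent of one another.

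The probes are given by the names and rn4 positions of the array files. Cyp2c22 was listed under its older name Cyp2c70 (probe A_44_P287842, chromosome 1, 245310265 to 245311185, minus strand), Cyp2c12 as Cyp2c40 (A_44_P139673, unplaced sequence, 17424990 to 17425049) and Cyp2c6v1 as LOC293989 (A_44_P133140, chromosome 1, 243895752 to 243895811). A probe listed simply as Cyp2c carries the accession of Cyp2c11 and was read as that gene (A_44_P280786, chromosome 1, 243320626 to 243320685). Cyp2c13 (A_44_P327817) lay on unplaced sequence at 17358228 to 17358287, and Cyp2c23 (A_43_P12701) on chromosome 1 at 249220039 to 249220098. The 4 probes of Cyp2c7 lay on the sequence 7_random, minus strand, A_43_P13939 at 579172, A_44_P651091 at 579422, A_44_P484669 at 582002 and A_44_P698234 at 582344. Cyp2c messages are close in sequence and probe sequences were not used here, so signal from a related gene cannot be told apart from the named one. The exon or untranslated region under each probe was not determined.

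Arrays of fipronil rats were brighter as a whole. Their 75th percentile of intensity averaged 209.9 ± 25.8 (SD, n = 8), against 171.5 ± 33.3 (SD, n = 7) on vehicle arrays (exact permutation p = 0.0202, adjusted p = 0.0381 over 4 array measures). Saturated probes numbered 168.2 ± 17.0 on fipronil arrays and 134.4 ± 26.8 on vehicle arrays (exact permutation p = 0.0115). The dimmest array was vehicle replicate 7, with a 75th percentile of 115.4. Signal below means log2 intensity minus the log2 75th percentile of the same array. The arrays lay on 4 slides, each with both groups.

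Of the 10 probes, 6 gave a measurable signal in both groups, and they cover 5 genes. The other 4 probes were saturated on every fipronil array, so they give only a bound and no difference between the groups: 2 of Cyp2c7 and the single probes of Cyp2c6v1 and Cyp2c12. Among the 6 measured probes, 1 rose (Cyp2c22) and 0 fell at a limma adjusted p under 0.05, and at an unadjusted p under 0.05 there were 2 higher (Cyp2c22 and Cyp2c23) and 0 lower. Over all 23256 probes tested, 0.533% were called higher and 0.288% lower at the adjusted threshold, 0.821% in all. At the unadjusted threshold 6.52% of all tested probes were higher and 10.7% lower. The median log2 difference of the 6 was 0.12, beside -0.02 over all tested probes. In 0 of the 6 did every fipronil rat lie above every vehicle rat, which was seen for 0.371% of the tested probes measured on all arrays. All 10 member probes had passed the filter on dim probes.

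**Figure D1:**
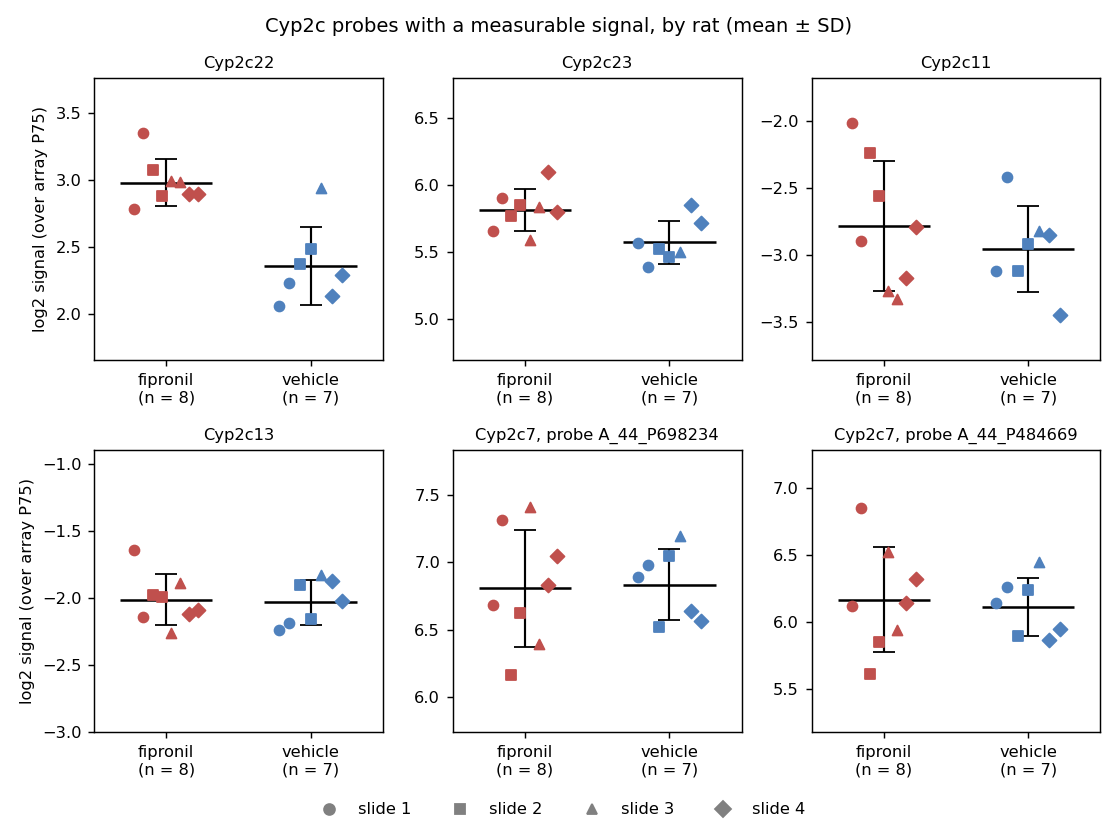
Signal (log2 intensity over the array's 75th percentile, P75) of the 6 measurable Cyp2c probes, 1 point per rat, with fipronil (n = 8) left of vehicle (n = 7), horizontal lines and bars for the mean ± SD, and marker shapes for the slide. Every panel spans the same log2 range. For Cyp2c22, 6 of 7 vehicle rats lie below the lowest fipronil rat, and the remaining one, on slide 3, lies among the fipronil rats.

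Cyp2c22 has as its mouse counterpart by name Cyp2c70, which in mice makes muricholic acids from bile acid precursors. It rose 1.54-fold with fipronil (95% interval 1.29 to 1.84). Its signal on fipronil arrays was 2.78, 3.35, 3.07, 2.88, 2.99, 2.98, 2.89 and 2.89 in replicates 1 to 8. On vehicle arrays it was 2.06, 2.23, 2.37, 2.48, 2.94, 2.13 and 2.29 in replicates 1 to 7. All 8 fipronil rats lay above the vehicle mean and 4 lay above the highest vehicle rat, so the groups overlapped through vehicle replicate 5. Fipronil rats averaged 2.98 ± 0.17 (SD, n = 8) and vehicle rats 2.36 ± 0.29 (SD, n = 7), a log2 difference of 0.62 (SE 0.12, limma adjusted p = 0.0232). Both groups were well above background on all 15 arrays and no array was saturated.

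Within slides the Cyp2c22 difference was 0.92 on slide 1, 0.55 on slide 2, 0.04 on slide 3 and 0.68 on slide 4. Slide 3 held 1 vehicle array, that of vehicle replicate 5, and each other slide held 2. Without that rat the difference was 0.72 (adjusted p = 0.00258). Fitted with the array's brightness beside group it was 0.59 (adjusted p = 0.207), and the rats' deviations from their group means correlated at 0.11 with the log2 75th percentile of the array (15 arrays, a description). The call was lost under 10 of 34 alternatives, while the difference stayed between 0.50 and 0.72. Leaving out vehicle replicate 1, 2, 6 or 7 ended it, with adjusted p = 0.0551, 0.0591, 0.0525 and 0.0552.

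**Figure D2:**
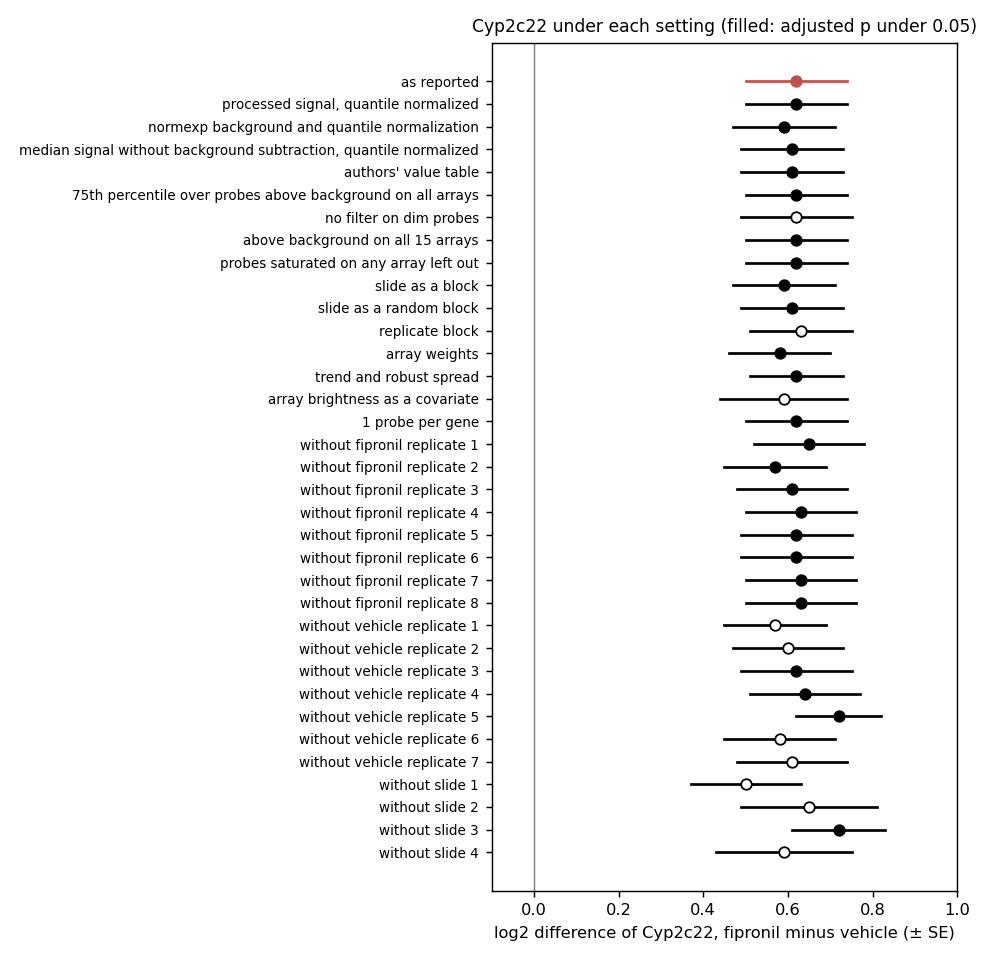
Log2 difference of Cyp2c22, fipronil minus vehicle (point, with a bar for ± SE), as reported (red, top) and under each of the 34 alternatives, filled where the limma adjusted p was under 0.05. All points lie between 0.50 and 0.72, and 10 of the 34 are open.

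Cyp2c23, known from rat kidney as an epoxygenase of arachidonic acid, was 1.18-fold higher with fipronil without passing the test. Its signal had a lowest, median and highest value of 5.59, 5.82 and 6.10 on fipronil arrays and 5.39, 5.52 and 5.85 on vehicle arrays. All 8 fipronil rats were above the vehicle mean, 2 of them above the highest vehicle rat, and the groups overlapped. The log2 difference was 0.24 (SE 0.09, 95% interval 0.05 to 0.43, limma adjusted p = 0.1995, unadjusted p = 0.0174). Fipronil rats were higher on each of the 4 slides, by 0.29, 0.32, 0.21 and 0.17. Over 34 alternatives the difference ranged from 0.20 to 0.29 and was called in none of them.

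The probes of the male-specific genes were dim in these females, and neither gene differed detectably. Cyp2c11 gave an intensity of 19.1 to 51.0 on fipronil arrays and 10.5 to 29.4 on vehicle arrays, and it was well above background on 14 of 15 arrays, the exception being vehicle replicate 7. Its signal had a lowest, median and highest value of -3.33, -2.85 and -2.02 with fipronil and -3.45, -2.92 and -2.42 with vehicle. The log2 difference was 0.17 (SE 0.20, 95% interval -0.25 to 0.59, limma adjusted p = 0.710). The lowest vehicle value came from replicate 7, where the probe was not well above background. The highest and the lowest fipronil rats were 2.47-fold apart. Fipronil rats were higher on 3 of 4 slides. Over 33 alternatives the difference ranged from 0.02 without slide 2 to 0.37 without slide 3 and was called in none of them. It was 0.06 without fipronil replicate 1, 0.09 without fipronil replicate 3 or without vehicle replicate 7, and 0.06 in the authors' table and with the normexp background.

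Cyp2c13 was well above background on all 15 arrays, at intensities of 38.6 to 66.2 with fipronil and 28.5 to 52.8 with vehicle. Its signal was -2.26, -2.04 and -1.64 (lowest, median and highest) on fipronil arrays and -2.24, -2.02 and -1.83 on vehicle arrays. These ranges nearly coincide: the log2 difference was 0.02 (SE 0.10, limma adjusted p = 0.959), with a 95% interval of -0.19 to 0.22. On the linear scale the interval runs from 0.87-fold to 1.17-fold.

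Cyp2c7, the retinoic acid hydroxylase that is higher in females, was read by 4 probes, 2 of them at the scanner's ceiling. The probes at 579172 and 579422 were saturated on 15 of 15 arrays. Those at 582002 and 582344 were measured on all 15. Probe A_44_P698234 had a signal of 6.16, 6.75 and 7.41 (lowest, median and highest) with fipronil and 6.52, 6.89 and 7.20 with vehicle. Its log2 difference was -0.02 (SE 0.18, 95% interval -0.40 to 0.35, limma adjusted p = 0.963). For A_44_P484669 the values were 5.61, 6.13 and 6.85 with fipronil and 5.87, 6.14 and 6.45 with vehicle, a log2 difference of 0.06 (SE 0.16, 95% interval -0.28 to 0.39, limma adjusted p = 0.902).

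The spread of Cyp2c7 was wider among fipronil rats on both probes. The SD was 0.44 with fipronil and 0.26 with vehicle on A_44_P698234, and 0.39 with fipronil and 0.22 with vehicle on A_44_P484669. Fipronil replicates 2 and 5 were the highest rats and fipronil replicate 3 the lowest on both probes, and the distance between the highest and the lowest rat was 2.37-fold on the first. Deviations from the group means correlated at 0.94 between the 2 probes over the 15 arrays. Fipronil rats were higher on 2 of 4 slides and lower on the other two.

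The 4 saturated probes stood at the scanner's ceiling. Cyp2c6v1, of the phenobarbital-inducible Cyp2c6 type, was saturated in 8 of 8 fipronil rats and in 4 of 7 vehicle rats. Its processed intensity had a lowest, median and highest value of 69250, 76980 and 77250 on fipronil arrays and 61680, 76450 and 81590 on vehicle arrays. The vehicle arrays below saturation were replicates 2, 5 and 7, at 80940, 81590 and 61680. Processed intensity carries a correction for position on the slide, so an unsaturated spot can exceed a saturated one. Relative to its array, the Cyp2c6v1 signal was lower on fipronil arrays, 8.48 ± 0.14 (SD, n = 8) against 8.76 ± 0.29 (SD, n = 7) on vehicle arrays. A ceiling divided by a brighter array gives a lower value, so no direction was read from it.

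**Figure D3:**
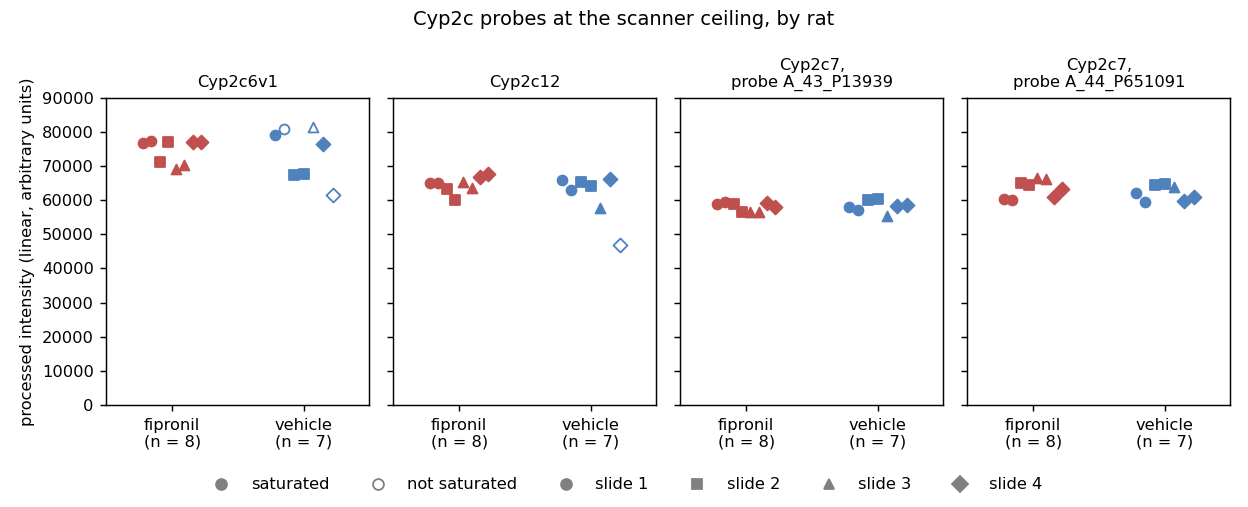
Processed intensity (linear, arbitrary units, axis from 0) of the 4 Cyp2c probes saturated on every fipronil array, 1 point per rat, fipronil (n = 8) left of vehicle (n = 7), filled where the spot was saturated and open where not, with marker shapes for the slide. The open points are 3 vehicle rats for Cyp2c6v1 and 1 vehicle rat for Cyp2c12.

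Cyp2c12, the female-specific gene, was saturated in 8 of 8 fipronil rats and in 6 of 7 vehicle rats. Its processed intensity was 60080, 65110 and 67600 (lowest, median and highest) on fipronil arrays and 46990, 64100 and 66240 on vehicle arrays. The unsaturated value, 46990, came from vehicle replicate 7, the dimmest array. The saturated Cyp2c7 probes stood at 56440 to 59430 and 59990 to 66450 with fipronil and at 55280 to 60250 and 59420 to 64690 with vehicle. All 4 probes were bright in both groups, and a change of these genes in either direction could not be measured. The limma fit called 0 of the 4.

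**Figure D4:**
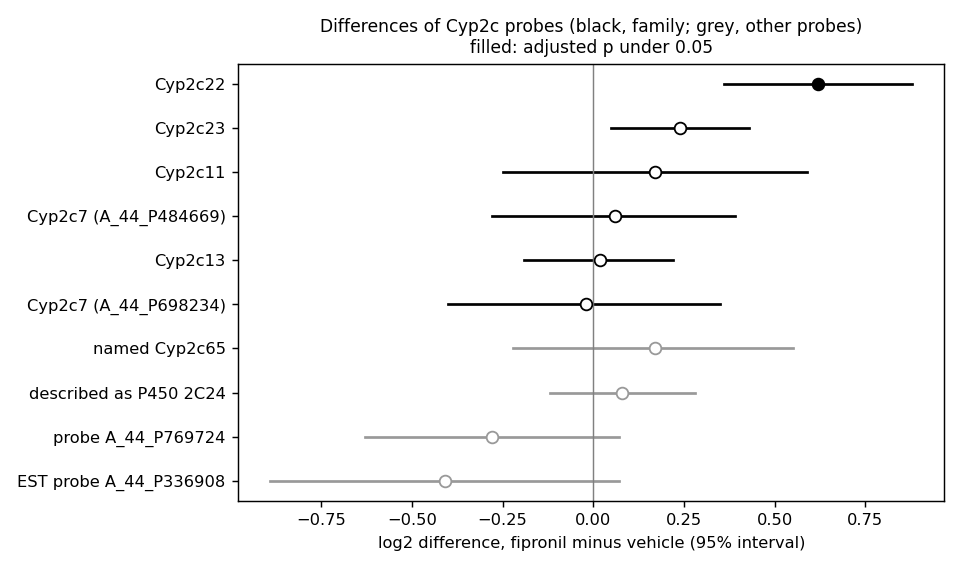
Log2 difference, fipronil minus vehicle, with its 95% interval, for the 6 measurable probes of the Cyp2c family (black) and 4 probes of related names or overlapping position (grey), filled where the limma adjusted p was under 0.05. Only Cyp2c22 is filled; the interval of Cyp2c23 lies just above 0, and those of the other 8 probes cross 0.

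Of the probes with a Cyp2c name or description outside the list, none with a measurable difference passed the test. The probe named Cyp2c65 (A_44_P443072) differed by 0.17 (SE 0.18, limma adjusted p = 0.690). The probe named Cyp2c37 (A_44_P475573) was saturated in 4 of 8 fipronil rats but in 0 of 7 vehicle rats, at processed intensities of 58960 to 68710 with fipronil and 38320 to 60970 with vehicle. The ceiling limits its values with fipronil, so no difference is given for it. A probe described as similar to mouse Cyp2c40 (A_44_P769724) differed by -0.28 (SE 0.17, limma adjusted p = 0.408). Of 2 probes without a gene symbol that the array describes as cytochrome P450 2C24, A_44_P1070649 differed by 0.08 (SE 0.10, limma adjusted p = 0.730). The other, A_44_P515441, was well above background on 0 of 15 arrays and was not tested. The accessions of neither probe matched a gene of the RefSeq table, which lists CYPIIC24, a name given for A_44_P515441, as a synonym of Cyp2c55. Neither was assigned to Cyp2c24. An expressed-sequence probe that overlaps the Cyp2c6v1 probe on the opposite strand (A_44_P336908) differed by -0.41 (SE 0.23, limma adjusted p = 0.372).

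Whether members responded differently from one another was tested on the log ratio of their probes within an array, which cancels the array's brightness. There were 10 pairs among the 5 measured members, with Cyp2c7 represented by A_44_P698234, the brighter of its unsaturated probes. The Cyp2c22 change exceeded that of Cyp2c7 by 0.65 on the log2 scale (exact permutation p = 0.00249, two-sided, adjusted p = 0.0124 over the 10 pairs) and that of Cyp2c13 by 0.60 (exact permutation p = 0.00186, adjusted p = 0.0124). All 8 fipronil rats were above the vehicle mean for both ratios. With the other Cyp2c7 probe the first value was 0.56. Cyp2c22 exceeded Cyp2c23 by 0.38 (exact permutation p = 0.0357, adjusted p = 0.119) and Cyp2c11 by 0.45 (exact permutation p = 0.100, adjusted p = 0.200), which the adjusted test does not separate. The remaining 6 pairs, none of which includes Cyp2c22, differed by 0.04 to 0.26, with adjusted p = 0.199 to 0.871. The pair of Cyp2c22 with Cyp2c7 passed under each of 16 alternatives (median intensity and single rats left out; exact permutation, adjusted p = 0.0117 to 0.0266). The pair of Cyp2c22 with Cyp2c13 passed with each single rat left out (exact permutation, adjusted p = 0.00583 to 0.0266). These alternatives left out no whole slide and fitted no slide term. Other pairs passed under some of these alternatives. With median intensity without background subtraction, Cyp2c22 exceeded Cyp2c11 by 0.74 (exact permutation, adjusted p = 0.0117) and Cyp2c23 exceeded Cyp2c13 by 0.39 (adjusted p = 0.00933). In that setting background stays in the signal of the dim Cyp2c11 and Cyp2c13 probes, so ratios with them do not cancel the array's brightness. Fipronil arrays were brighter, and no difference between members was read from the median-intensity values of pairs with either gene. Without fipronil replicate 1, Cyp2c23 exceeded Cyp2c13 by 0.30 (exact permutation, adjusted p = 0.0155). Without vehicle replicate 5, Cyp2c22 exceeded Cyp2c23 by 0.49 (exact permutation, adjusted p = 0.0133).

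The family was then set beside genes of related function, from lists written with earlier results of these data known. Each gene of a list was read by its probe with the highest mean signal. Among other known target genes of CAR and PXR, 10 of 18 tested rose and 0 fell (median log2 difference 1.10). They were Cyp3a23-3a1, a P450 of drug and steroid oxidation (16.87-fold), Cyp3a18 (3.91-fold) and Cyp3a62 (2.01-fold) of the same family, the glucuronosyltransferases Ugt1a1 (4.75-fold) and Ugt2b1 (2.66-fold), the carboxylesterases Ces2c (8.07-fold) and Ces2a (5.93-fold), the efflux pump Abcb1b (2.10-fold), microsomal epoxide hydrolase Ephx1 (2.15-fold) and the retinal dehydrogenase Aldh1a1 (2.35-fold). Each of these differences, picked by passing the test, was larger than the 1.54-fold of Cyp2c22, and the difference between them was not tested. Among measured genes of the list that did not pass, Cyp3a2 (7.31-fold), Cyp3a9 (2.13-fold) and Abcc3 (2.02-fold) lay above 1.54-fold. Cyp2a1 (1.45-fold), Abcc2 (1.35-fold), Por (1.28-fold) and Cyp2b3 (0.9-fold) lay below it. Alas1, counted among the 18, was read by a probe saturated on every array of at least 1 group. No probe carried the symbol Cyp2b1 or Cyp2b2, the classical CAR targets. Of 3 probes that the array describes as P450 2B1, one that it names Cyp2b15 (A_44_P311322) rose by 2.84 on the log2 scale (limma adjusted p = 0.00386). A second (A_44_P311323) rose by 1.80 (adjusted p = 0.00929), and the third differed by 0.06 (adjusted p = 0.962). The 2 probes described as P450 2B2 did not pass, at 1.18 (adjusted p = 0.0604) and 0.22 (adjusted p = 0.811).

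**Figure D5:**
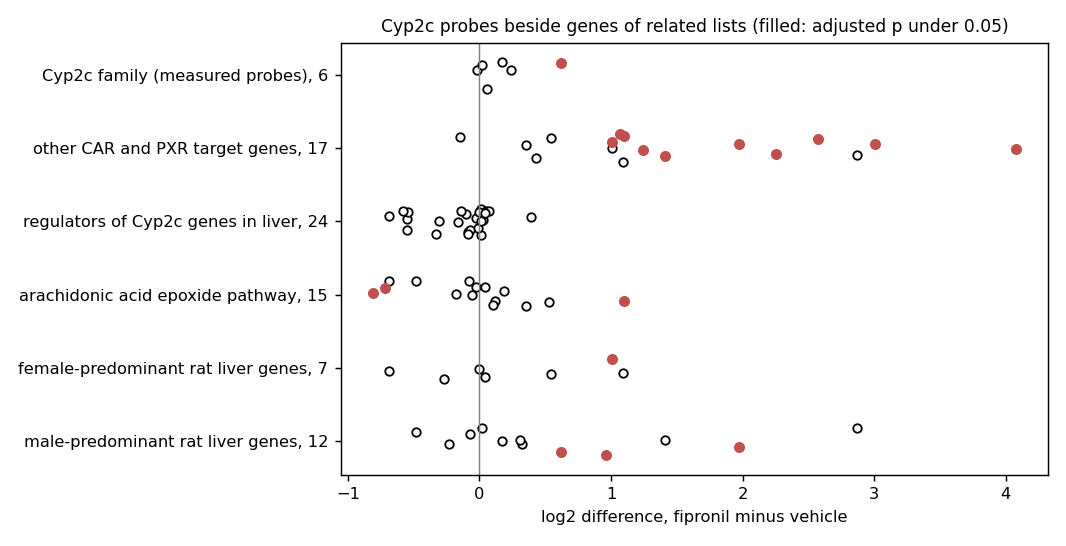
Log2 difference, fipronil minus vehicle, for the 6 measurable Cyp2c probes (top row) and for the genes of 5 related lists, 1 point per probe or gene, with the number drawn beside each list and filled points for a limma adjusted p under 0.05. Genes saturated on every array of a group are left out. The Cyp2c probes lie between -0.02 and 0.62 and the CAR and PXR target genes between -0.15 and 4.08, so the ranges overlap.

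None of the regulators of Cyp2c genes in liver passed the test: 0 of 25 rose or fell in limma, and 1 higher and 5 lower of the 24 measured had an unadjusted p under 0.05, a threshold that 6.52% of all tested probes passed as higher and 10.7% as lower. Those 6, named after their values were seen, were Foxa1, a forkhead factor (0.39, SE 0.16, limma adjusted p = 0.225), and 5 with differences below 0. These 5 were the growth hormone receptor gene Ghr (-0.31, SE 0.11, adjusted p = 0.164), its feedback inhibitors Cish (-0.55, SE 0.20, adjusted p = 0.184) and Socs2 (-0.54, SE 0.25, adjusted p = 0.279), the prolactin receptor gene Prlr (-0.69, SE 0.30, adjusted p = 0.252) and the oestrogen receptor gene Esr1 (-0.58, SE 0.19, adjusted p = 0.143). The other 2 probes of Ghr differed by 0.02 and -0.18. Nr1i2, which encodes PXR, differed by -0.03 (SE 0.14, adjusted p = 0.934). Nr1i3, which encodes CAR, differed by 0.01 (SE 0.19, adjusted p = 0.984). Onecut1, which encodes HNF6, an activator of Cyp2c12, differed by -0.33 (SE 0.24, adjusted p = 0.518). The list's median was -0.09, beside -0.02 over all tested probes. It includes Igf1, read by the brightest of its 4 probes. That probe was saturated on 15 of 15 arrays, so the gene is not among the 24 measured. Over those 24 the median was -0.08.

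Among genes that are male-predominant in rat liver, 3 of 12 tested rose and 0 fell. One is Cyp2c22 itself. Cyp3a18, also counted above, and Slco1a1, an organic anion transporter (0.96, SE 0.08, limma adjusted p = 4.94e-06), are the others, and Cyp2c11 and Cyp2c13 of the same list did not pass. Of the female-predominant genes 1 of 10 rose, Cyp3a62, and 0 fell, while 3 of the 10, Cyp2c7, Cyp2c12 and Sult2a1, were read by probes saturated on every fipronil array. The 2 unsaturated Cyp2c7 probes, described above, differed by -0.02 and 0.06. In the pathway that makes and breaks down arachidonic acid epoxides, in which Cyp2c23 acts, 1 of 17 rose (Ephx1) and 2 fell: the fatty acid hydroxylases Cyp4a3 (-0.72, limma adjusted p = 0.0448) and Cyp4a8 (-0.81, adjusted p = 0.0435). Ephx2, soluble epoxide hydrolase, differed by -0.06 (SE 0.14, adjusted p = 0.863). Cyp4f1 and Acsl1, counted among the 17, were read by probes saturated on every array of at least 1 group.

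Hepatocyte markers were well above background on every array for 10 of 10 genes, with 7 of them saturated on every array of at least 1 group. Markers of other liver cells were present in both groups. For sinusoidal endothelial cells 5 markers were summed on a linear scale relative to the array's 75th percentile. The sum ranged from 68.1 to 129.4 with fipronil and from 57.4 to 78.2 with vehicle. It is mostly Kdr, whose mean log2 signal was 6.28 with fipronil, against 2.23 for the next brightest, Lyve1. In limma 0 of 5 passed, and Pecam1 and Tek were below the filter. An unadjusted p under 0.05 was seen for 3, Stab2 (0.42), Lyve1 (0.52) and Kdr (0.29), whereas Cdh5 (-0.08) and Vwf (-0.24) were lower. For stellate cells and fibroblasts the sum of 7 markers ranged from 33.2 to 56.3 with fipronil and from 33.6 to 52.0 with vehicle, and 1 of 7, the pericyte gene Rgs5, rose (1.01, limma adjusted p = 0.00882). In the Kupffer cell, cholangiocyte and blood cell lists 0 of 9, 0 of 5 and 0 of 5 passed, with 1, 1 and 0 at an unadjusted p under 0.05. The part of these cells in the Cyp2c22 difference was not tested.

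The genes whose pattern over the rats was most like each member's were found by correlating deviations from the group means over the 15 arrays, among 10630 genes, as a description with no test. For Cyp2c22 they were Fam18b-ps1 (r = 0.86), Enc1 (0.83) and Clk4 (0.82). For Cyp2c7 they were Abhd2 (0.92), Slc35a3 (0.89) and Arpc5 (0.88), and for Cyp2c23 Otp (0.79), Ugt1a6 (0.78) and Prkaa2 (0.78). The nearest 3 of Cyp2c11 included Gnl2 (0.83) and Gpx6 (0.82), and Cyp2c13 was nearest to Fbxo15 (0.89), Mylk3 (0.82) and C7h8orf76 (0.81). The points share arrays and slides, and with deviations taken from slide and group means 1 of the 15 nearest genes, Fbxo15, remained among the nearest 3. Between members, apart from the 2 Cyp2c7 probes with each other, these correlations ran from -0.49 to 0.49. The lowest was Cyp2c7 probe A_44_P698234 with Cyp2c13, and the highest Cyp2c7 probe A_44_P484669 with Cyp2c22. Probe A_44_P698234 correlated with Cyp2c22 at 0.37.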

How the data were processed

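Per the file headers, spot intensity was read from a GenePix scan with Feature Extraction 9.5.3.1 and background subtracted with detrending, with no scaling from array to array; the submitters' processing notes name Feature Extraction 9.5 and limma. The deposited series table holds log2 values of 22244 probes; set against the scanner files (Spearman correlation at least 0.99999 across probes) it was read as log2 median intensity, quantile normalized by the authors, with column medians of 7.651 to 7.661. How its probes were chosen is not given in the sources used here. The deposited files also hold 0 or 1 flags for saturation and background.

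Outlier spots were left out, spots of a probe averaged, and log2 processed intensity expressed relative to the array's 75th percentile. Each probe was kept on its own. Of 41012 probes, the 23256 well above background on at least 7 arrays and missing on at most 3 were tested with limma 3.58.1 (lmFit, eBayes, two-sided, all 15 arrays, no covariates) in R 4.3.3, with a Benjamini-Hochberg adjusted p under 0.05 over all of them. The step was also run on simulated data with known changes, all larger than the Cyp2c22 difference, and with independent noise for each probe. That run does not measure how well a difference of the size seen for Cyp2c22 is detected. Pairs of members were compared by exact permutation over arrays (SciPy 1.17.1). The plan named the brightest probe of each gene; for Cyp2c7 that probe was saturated, so the brightest unsaturated one stood in. Precision is limited by the number of arrays. Replicates were rats, 1 array each, and same-numbered rats of the 2 groups were not treated as pairs. Their deviations correlated at -0.04 to 0.37, with own number best in 3 of 7. Most same-numbered rats also shared a slide, so these correlations cannot tell pairing from slide.

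Symbols came from a RefSeq table of GRCr8, used for names; probe positions are rn4, per the file headers. The members and lists were chosen with earlier results of these data known. Named were every member probe, the 3 genes most like each member (1 is not reported here), every list gene past the test, and Nr1i2, Nr1i3, Onecut1, Cyp2b1, Cyp3a23-3a1 and Ephx2; probes described as P450 2B1 or 2B2 were added after no probe was found under those genes' symbols. Alternatives changed scaling, background correction, filter, blocks, spread, brightness, single arrays and slides.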

Additional observations from a re-analysis of the deposited data

How the results depend on the processing

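Over 34 alternatives the Cyp2c22 difference kept its direction (0.50 to 0.72). Its call was lost with no filter on dim probes (0.62, adjusted p = 0.0571), where more probes were tested, with the replicate number as a block (replicate block, 0.63, adjusted p = 0.0763), fitted with the array's brightness (0.59, adjusted p = 0.207), without slide 1 (0.50, adjusted p = 0.212), without slide 2 (0.65, adjusted p = 0.0861) and without slide 4 (0.59, adjusted p = 0.274), and, with single rats left out, the difference ranged from 0.57 to 0.72 (adjusted p = 0.00258 to 0.0591). In these settings the count of Cyp2c probes called higher was 0 in place of 1; it ranged from 0 to 1 with single rats left out. The cause of the lost calls was not tested. Leaving out any single fipronil rat kept the call (limma adjusted p = 0.0324 to 0.0488). Leaving out vehicle replicate 3, 4 or 5 also kept it, while leaving out vehicle replicate 1, 2, 6 or 7 ended it. The settings with no filter and with brightness in the fit left no rat out. Differences near 0 turned: Cyp2c7 probe A_44_P484669 to -0.07 with brightness in the fit, -0.02 without slide 1 and -0.05 without slide 4 (single rats left out, -0.04 to 0.14); Cyp2c7 probe A_44_P698234 to 0.00 in the authors' table, 0.09 without slide 2 and 0.01 without slide 3 (-0.11 to 0.07); Cyp2c13 to -0.01 with median intensity and in the authors' table and -0.10 without slide 1 (-0.04 to 0.05). The change of Cyp2c11 minus that of Cyp2c7 was -0.11 with median intensity. That setting keeps the background, so ratios with the dim Cyp2c11 and Cyp2c13 probes do not cancel the array's brightness there. Cyp2c13 minus Cyp2c7 was -0.14 with median intensity and -0.04 with the other Cyp2c7 probe (-0.06 to 0.16 with single rats left out), and Cyp2c23 minus Cyp2c11, 0.07 as reported, was 0.37 with median intensity (exact permutation p = 0.0273, adjusted p = 0.0547 over the 10 pairs) and ranged from -0.05 to 0.20 with single rats left out. Within slides 1 to 4 the differences were 0.92, 0.55, 0.04 and 0.68 for Cyp2c22, 0.28, -0.34, -0.22 and 0.32 for Cyp2c7 probe A_44_P484669, 0.07, -0.39, -0.30 and 0.34 for A_44_P698234, 0.31, 0.62, -0.48 and 0.17 for Cyp2c11, and 0.32, 0.04, -0.25 and -0.16 for Cyp2c13, with 1 or 2 rats a group.

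Over all probes, the counts of 124 higher and 67 lower became 61 and 29 with no filter, 64 and 33 with the replicate block, 34 and 8 with brightness in the fit, 33 and 4 without slide 1 and 38 and 7 without slide 4, and 140 were lower with slide as a random block. With single rats left out they ranged from 72 to 167 higher and from 30 to 140 lower. Cyp2c6v1, Cyp2c12 and 2 Cyp2c7 probes were limited by the scanner's ceiling, and Cyp2c11 by signal near background.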
